A study of Mus musculus with 9 samples.

Results

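A set of 9 regulators and markers of the kidney stromal progenitor were followed across 3 genotypes of the embryonic mouse kidney: the transcription factor genes *Foxd1*, *Meis1*, *Meis2*, *Tcf21*, *Twist1*, *Tbx18* and *Snai2*, the receptor gene *Ntrk3* and the matrix gene *Ecm1*. They were taken by gene name, and each of the 9 names had 1 locus among the 24138 loci measured. RNA of whole kidneys at E15.5 was sequenced in 9 libraries, 3 for each genotype, to ask what losing *Ntn1* (the secreted guidance cue netrin 1) from the stroma does to the kidney. The homozygous genotype, *Foxd1*GC/+;*Ntn1*fl/fl (MUT), has a GFP-Cre fusion in 1 *Foxd1* allele and floxed *Ntn1* on both chromosomes. The heterozygous genotype, *Foxd1*GC/+;*Ntn1*fl/+ (HET), shares that Cre allele and has 1 floxed *Ntn1* allele. The genotype called wild type (WT), *Ntn1*fl/fl, has both alleles floxed and lacks Cre. All 9 kidneys came from 3 crosses of *Ntn1*fl/fl with *Foxd1*GC/+;*Ntn1*fl/+ animals. Recombination follows the *Foxd1* locus, so *Ntn1* can be lost in *Foxd1*-expressing cells and their descendants, and the 6 HET and MUT kidneys (Cre carriers) have 1 *Foxd1* allele without the insertion.

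The renal stroma is the mesenchyme that lies around the nephrons and collecting ducts. Its *Foxd1*-expressing progenitors form a layer outside the nephron progenitors and give rise to interstitial fibroblasts, pericytes, mesangial cells and smooth muscle cells of the vessels. Several of the 9 genes are also used elsewhere in the kidney, *Tcf21* in podocytes and *Tbx18* in the mesenchyme around the ureter, and a whole kidney library adds all of these cells together.

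Levels are in FPKM, the fragments per kilobase of transcript scaled to the library, as deposited. The number of reads is unknown, and the spread between the 3 libraries of a genotype is the measure of error. Where 3 values of a genotype are given, they follow the library numbers. Differences are on the log2(FPKM + 1) scale from limma, fitted over the 10164 loci whose mean reached 5 FPKM for at least 1 genotype. Of the 9 genes, 7 passed that minimum, and *Tbx18* and *Ntrk3* were compared in a further fit of 13112 loci with a minimum of 1 FPKM. *Ntn1*, the targeted gene, read 26.1, 28.9 and 17.8 FPKM in WT, 12.3, 12.02 and 16.5 FPKM in HET and 10.8 to 16.5 FPKM in MUT, so that it separated Cre carriers from WT but not MUT from HET. HET-2 stood apart in hepatocyte markers, which summed to 758.6 FPKM over 8 genes there and to between 28.7 and 53.9 FPKM in the other 8 libraries. It was also the highest in neural crest and neuron markers (30.5 FPKM, against 9.40 to 15.3 FPKM) and in erythroid markers (2786 FPKM, against 1579 to 1930 FPKM). The erythroid sums count 1 locus, which carries the names *Hba-a1* and *Hba-a2*, 2 times (396.8 FPKM each time in HET-2). WT-3 stood apart in base composition, with a correlation of -0.52 across loci between its deviation from the mean library and transcript GC content, against -0.31 to 0.30 in the others. The lowest FPKM steps gave relative depths between 0.578 in WT-2 and 1.27 in MUT-1, with WT-1 set to 1.

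The 9 genes were all above 0 in every library, with mean levels over the 9 libraries from 162 FPKM for *Tcf21* to 3.11 FPKM for *Ntrk3*. *Tcf21* was above 98.2% of all loci. Below it came *Meis2* at 49.8 FPKM, *Ecm1* at 47.5 FPKM, *Snai2* at 34.0 FPKM, *Meis1* at 29.8 FPKM and *Foxd1* at 25.3 FPKM, followed by *Twist1* at 7.51 FPKM and *Tbx18* at 3.77 FPKM. The ranges over the 9 libraries did not overlap between *Tcf21* and *Meis2*, between *Foxd1* and *Twist1*, or between *Twist1* and *Tbx18*. The 5 neighbouring pairs left in this order overlapped, and *Meis2* was above *Ecm1* in only 5 of 9 libraries. *Meis1* was above *Foxd1* in 7 of 9 libraries, and the 2 exceptions were WT-1 and WT-2.

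*Foxd1* encodes the forkhead factor that marks the stromal progenitors and is needed in them for normal nephron formation. It lies on chromosome 13 from 98354245 to 98356705 (mm10). *Foxd1* was the gene of the 9 that was lower in both genotypes with the Cre allele. It read 33.7, 33.4 and 25.8 FPKM in WT, 21.7, 20.2 and 21.5 FPKM in HET, and 24.8, 22.5 and 24.3 FPKM in MUT. Every Cre carrier lay below every WT library, and every MUT library lay above every HET library. Among the 10164 loci, 0.108% were lower in all 6 carriers than in all 3 WT libraries (1.06% for HET alone and 1.35% for MUT alone), and 5.17% were higher in all 3 MUT than in all 3 HET libraries.

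**Figure D1:**
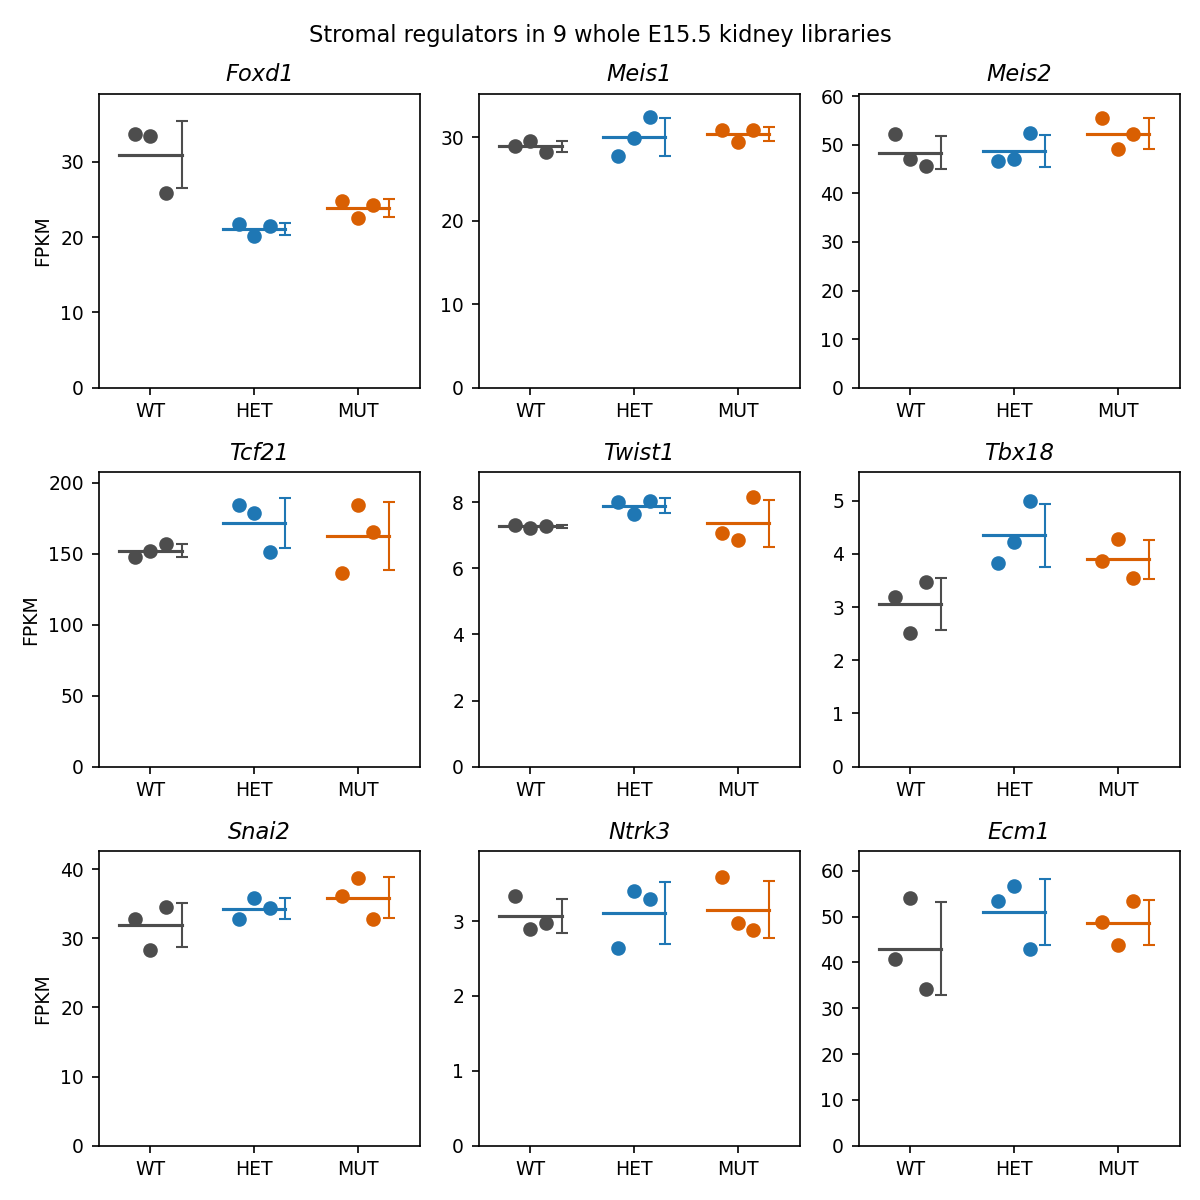
FPKM of each of the 9 genes in every library, with 1 panel per gene, the 3 genotypes along the horizontal axis and FPKM on a vertical axis of its own. Points are libraries and bars are the mean and s.d. of 3 libraries. *Foxd1* is between 20.2 and 24.8 FPKM in the Cre carriers and between 25.8 and 33.7 FPKM in WT, while *Tbx18* is between 3.54 and 4.996 FPKM in the carriers and between 2.51 and 3.48 FPKM in WT.

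The carriers held 72.6% of the WT mean of *Foxd1*. The mean difference was -8.47 FPKM, with p = 0.0238 in an exact two-sided permutation test of 6 libraries against 3, which is the smallest p this design allows. Without WT-1, WT-2 or WT-3 the difference was -7.11, -7.26 or -11.0 FPKM, and the exact test of 6 against 2 cannot give p below 0.0714. WT-3 was the lowest WT library for *Foxd1*. After median-ratio rescaling its value was 25.03 FPKM and that of MUT-1 25.07 FPKM, so the groups then touched (difference -8.28 FPKM, exact permutation p = 0.0476). After correction for GC content, the highest carrier stood at 24.6 FPKM and the lowest WT library at 27.8 FPKM.

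Across all loci, no locus reached an adjusted p under 0.05 in any of the 4 comparisons (limma with Benjamini-Hochberg adjustment, 0% of 10164 loci), and *Foxd1* did not either. Its log2 fold change was -0.52 in HET against WT (standard error 0.11, 95% interval -0.77 to -0.27, adjusted p = 0.998). In MUT against WT it was -0.35 (standard error 0.11, 95% interval -0.60 to -0.10, adjusted p = 1.00). By unadjusted p, *Foxd1* ranked 4 of 10164 loci in HET against WT and 29 in MUT against WT. The 2 comparisons share their WT libraries. MUT against HET gave 0.17 (standard error 0.11, 95% interval -0.08 to 0.42, adjusted p = 0.835), an interval that holds 0. In RNA of whole kidney, fewer cells of a type and less RNA per cell cannot be told apart, and the FPKM of the locus does not separate RNA of the intact allele from RNA of the allele with GFP-Cre.

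The *Foxd1* promoter is shown because Meis factors, which are made in the same cells, bind the letters TGACAG. The 250 bases before the annotated start (RefSeq, GRCm38.p6, chr13:98353995-98354244, plus strand, 5′ to 3′) hold these letters once, 50 bases before the start, and they are in capitals:
Foxd1: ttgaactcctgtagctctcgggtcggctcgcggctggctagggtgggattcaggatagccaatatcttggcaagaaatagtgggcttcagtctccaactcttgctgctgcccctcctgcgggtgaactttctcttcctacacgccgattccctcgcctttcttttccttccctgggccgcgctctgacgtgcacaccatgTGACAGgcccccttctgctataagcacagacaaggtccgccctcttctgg
TGACAG or its reverse complement occurs in 15.9% of 32851 promoters of the same length. The window also holds 1 E-box (CANNTG), the letters read by basic helix-loop-helix (bHLH) dimers such as those of Tcf21 and Twist1. It shares 2 bases with TGACAG. Promoters were listed for 7 of the 9 genes (*Ntrk3* and *Snai2* were not listed). TGACAG was found in 1 of the 7, and an E-box in 4 of the 7 (*Foxd1*, *Meis1*, *Ecm1* and *Tbx18*) against 66.2% of all promoters. The letters CACCTG, an E-box read by Snail factors, were in 0 of the 7 and in 17.2% of all promoters. A match of letters is a description of the sequence and not evidence of binding.

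*Meis1* and *Meis2* encode TALE homeodomain factors made throughout the stroma, and neither differed between genotypes beyond its spread. *Meis1* (chromosome 11, 18880428 to 19018969) read 29.0, 29.5 and 28.2 FPKM in WT, 27.8, 30.0 and 32.4 FPKM in HET, and 30.9, 29.4 and 30.9 FPKM in MUT. The HET libraries spanned the whole range of the WT libraries. Its log2 fold change was 0.05 in HET and 0.07 in MUT against WT, and 0.02 between MUT and HET (standard error 0.095 in each).

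*Meis2* (chromosome 2, 115861264 to 116065058) read 52.2, 47.2 and 45.7 FPKM in WT, 46.6, 47.0 and 52.5 FPKM in HET and 55.5, 49.1 and 52.1 FPKM in MUT, in the order of library number. All 3 genotypes overlapped, and the log2 fold changes were 0.01 in HET and 0.11 in MUT against WT and 0.10 between MUT and HET (standard error 0.11). The *Meis1* level was 55.6% to 63.7% of the *Meis2* level in every library. *Foxd1* stood at 116%, 113% and 91.5% of *Meis1* in WT, at 66.3% to 78.1% in HET and at 76.4% to 80.2% in MUT. Relative to *Meis2*, *Foxd1* was at 56.5% to 70.8% in WT and at 40.9% to 46.6% in the carriers. Both ratios separated carriers from WT in every library. The ratio of *Foxd1* to *Tcf21* did not, with WT-3 at 16.5% and MUT-1 at 18.1%. Relative to *Snai2*, the lowest WT library (WT-3) stood at 74.9% and the highest carrier (MUT-3) at 74.1%.

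Meis proteins bind DNA together with Pbx proteins, and of 9 TALE relatives and partners 7 passed the minimum. None of the 7 passed the test in either direction in any comparison (limma, 0 at unadjusted p under 0.05). Over all loci, that share was 0.787% to 3.96% by comparison, so a count of 0 is uninformative for so few genes. The median log2 difference of the 7 between carriers and WT was 0.02, beside 0.00 over all loci. *Tgif1*, a TALE repressor, gave 0.19 in HET against WT (standard error 0.12, adjusted p = 0.998).

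*Tcf21* and *Twist1* encode class II bHLH factors of mesenchyme. *Tcf21* (chromosome 10, 22817275 to 22820128), which is made in stroma and in podocytes, read 147.9, 151.7 and 156.8 FPKM in WT, 184.7, 178.6 and 151.4 FPKM in HET, and 136.8, 184.3 and 165.6 FPKM in MUT. WT libraries lay close together, MUT libraries lay on both sides of them, and HET-1 and HET-2 lay above them. The s.d. was 4.50 FPKM in WT, 17.8 FPKM in HET and 24.0 FPKM in MUT (n=3 each). The log2 fold changes were 0.17 in HET and 0.08 in MUT against WT and -0.09 between MUT and HET (standard error 0.14).

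*Twist1* (chromosome 12, 33957671 to 33959831), known for its part in mesenchyme formation, read 7.30, 7.23 and 7.28 FPKM in WT, 8.01, 7.63 and 8.05 FPKM in HET and 7.06, 6.86 and 8.17 FPKM in MUT. As deposited, all 3 HET libraries were above all 3 WT libraries, which was so for 2.13% of loci, while the MUT libraries spanned both. After correction for GC content HET and WT overlapped, with HET at 7.59, 7.12 and 8.89 FPKM and WT at 6.99, 7.15 and 8.40 FPKM. The log2 fold change was 0.11 in HET and 0.01 in MUT against WT and -0.09 between MUT and HET (standard error 0.11). Without that correction, the WT values of *Twist1* varied by 0.526% (coefficient of variation), against a median of 13.0% over the tested loci.

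Of 11 bHLH relatives and partners, 9 passed the minimum and none passed the test in any comparison (limma, 0 at unadjusted p under 0.05, beside 0.787% to 3.96% of all loci). Their median log2 difference between carriers and WT was 0.08. *Id1*, an inhibitor that binds the E proteins with which Tcf21 and Twist1 pair, gave 0.25 in HET against WT (standard error 0.14, adjusted p = 0.998). *Twist2*, the closest relative of *Twist1*, read 5.86 to 6.41 FPKM in WT, 6.52 to 8.65 FPKM in HET and 6.51 to 8.10 FPKM in MUT, with 0.18 in carriers against WT (standard error 0.12, adjusted p = 1.00).

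*Tbx18* encodes a T-box repressor known from the mesenchyme around the ureter and from vascular mural cells. Its values ran opposite to those of *Foxd1*. It lies on chromosome 9 from 87702800 to 87731260 and read 3.19, 2.51 and 3.48 FPKM in WT, 3.83, 4.22 and 4.996 FPKM in HET, and 3.86, 4.29 and 3.54 FPKM in MUT. All 6 carriers lay above all 3 WT libraries, as deposited and after median-ratio rescaling, quantile normalization and GC correction. At the minimum of 1 FPKM, 0.389% of 13112 loci were higher in this way. In HET alone against WT, 2.58% of loci were higher in every library, and in MUT against WT 1.78%. The nearest values were 3.54 FPKM in MUT-3 and 3.48 FPKM in WT-3.

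The mean of the carriers was 135% of the WT mean of *Tbx18*. The log2 fold change was 0.34 in carriers against WT (standard error 0.11, 95% interval 0.09 to 0.58, adjusted p = 1.00), 0.40 in HET against WT (standard error 0.13, adjusted p = 0.999) and 0.28 in MUT against WT (standard error 0.13, adjusted p = 1.00). MUT against HET gave -0.13 (standard error 0.13, 95% interval -0.41 to 0.16, adjusted p = 0.855). None of these passed the threshold over the 13112 loci. Without WT-2, the lowest library, the value in MUT against WT was 0.17. The values are low, and the + 1 of the log2 scale understates their ratio.

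The *Tbx18* promoter is shown beside that of *Foxd1* because these are the 2 of the 9 regulators whose carriers and WT libraries did not overlap. Its 250 bases before the start (RefSeq, GRCm38.p6, chr9:87731261-87731510, minus strand, 5′ to 3′) hold no TGACAG and 1 E-box, in capitals, 168 bases before the start:
Tbx18: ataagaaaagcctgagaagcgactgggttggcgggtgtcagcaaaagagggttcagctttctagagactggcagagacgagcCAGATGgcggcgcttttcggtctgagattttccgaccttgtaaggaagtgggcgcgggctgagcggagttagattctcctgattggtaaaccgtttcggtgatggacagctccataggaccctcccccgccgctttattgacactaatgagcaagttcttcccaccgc
Of 10 genes of the ureteral mesenchyme and smooth muscle, 9 passed the minimum. None passed the test (limma, 2 at unadjusted p under 0.05 in carriers against WT, beside 0.787% of all loci), and all 9 had a positive log2 difference between carriers and WT, with a median of 0.15 and a range of 0.00 to 0.67. Over all loci, 5214 of 10164 were positive and the median was 0.00. Nephron progenitor markers were positive in 5 of 6 (median 0.14) and podocyte markers in 1 of 6 (median -0.10). In HET against WT 3 of the 9 were higher at unadjusted p under 0.05 (0.826% of all loci), and in MUT against HET 4 were lower (3.96% of all loci, both directions). The authors had reported *Acta2*, *Actg2* and *Myh11* as downregulated in MUT against HET from these same libraries. These counts are therefore not independent of that report. The summed level of the 10 genes was 154.9 to 185.1 FPKM in WT, 189.8 to 229.5 FPKM in HET and 171.9 to 187.3 FPKM in MUT. HET-2 had the highest sum, and HET-1 at 197.4 FPKM and HET-3 at 189.8 FPKM were also above every WT library. Without HET-2, the *Tbx18* log2 fold change was 0.41 in HET against WT and 0.35 in carriers against WT. The cause of the *Tbx18* difference was not tested.

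The genes of this list with the smallest p were contractile genes and *Car3*, and in MUT they read close to WT. By qPCR, in contrast, the authors found *Acta2* and *Actg2* lower in MUT than in *Ntn1*fl/fl kidneys at E15.5. By staining they also measured fewer and shorter arteries lined by smooth muscle actin at that age. RNA of whole kidney does not tell smooth muscle of the ureter from smooth muscle of the vessels. *Actg2*, a smooth muscle actin, read 4.71, 3.16 and 4.79 FPKM in WT, 9.59, 16.3 and 8.24 FPKM in HET, with HET-2 the highest, and 4.53, 4.06 and 5.55 FPKM in MUT. Its log2 fold change was 1.21 in HET against WT (standard error 0.23, adjusted p = 0.998) and -1.07 in MUT against HET (adjusted p = 0.835). *Car3*, a carbonic anhydrase, gave 0.99 and -0.85 in the same comparisons, and *Myh11*, the smooth muscle myosin heavy chain, gave 0.64 and -0.60. All 3 were higher in every HET library than in every WT library, which was so for 2.13% of loci. *Tbx18* was above WT in MUT as well.

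*Snai2* encodes a zinc finger repressor of the Snail family, known for its part in epithelial-to-mesenchymal transition. It lies on chromosome 16 from 14705859 to 14709382 and read 32.8, 28.3 and 34.5 FPKM in WT, 32.7, 35.9 and 34.3 FPKM in HET, and 36.2, 38.7 and 32.8 FPKM in MUT. WT-2 was the lowest and MUT-2 the highest, and the genotypes overlapped. The log2 fold change was 0.17 in MUT against WT (standard error 0.11, adjusted p = 1.00), 0.11 in HET against WT and 0.06 in MUT against HET. Without WT-2 the differences from WT were 0.088 in MUT and 0.027 in HET. Of 6 other transcription factors of this transition, 5 passed the minimum and none passed the test in any comparison (limma, 0 at unadjusted p under 0.05, beside 0.787% to 3.96% of all loci). Their median log2 difference between carriers and WT was 0.03. *Prrx1*, a homeobox gene of mesenchyme, had the largest of these, 0.33 (standard error 0.18, adjusted p = 1.00), and ranged from 4.16 to 6.41 FPKM in WT, 5.31 to 8.53 FPKM in HET and 5.97 to 9.97 FPKM in MUT.

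*Ntrk3* encodes TrkC, the receptor of neurotrophin 3, and was the lowest of the 9 genes. It lies on chromosome 7 from 78192114 to 78577838 and read 3.33, 2.89 and 2.98 FPKM in WT, 2.64, 3.40 and 3.30 FPKM in HET and 3.59, 2.98 and 2.88 FPKM in MUT. The 3 genotypes overlapped and their means lay between 3.07 and 3.15 FPKM. The log2 fold changes were 0.01 in HET and 0.03 in MUT against WT and 0.01 between MUT and HET, with a standard error of 0.12 and a 95% interval of -0.24 to 0.27 for MUT against HET.

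Of 7 neurotrophins and receptors, 3 passed the minimum and none passed the test (limma, 1 at unadjusted p under 0.05, *Sort1* in MUT against HET, beside 3.96% of all loci). *Ntf3*, the ligand of TrkC, read 8.17 to 8.48 FPKM in WT, 7.69 to 8.08 FPKM in HET and 6.19 to 8.43 FPKM in MUT. *Ngfr*, the low-affinity receptor, gave a log2 fold change of 0.19 in carriers against WT (standard error 0.12, adjusted p = 1.00). *Sort1*, which encodes the neurotrophin-binding sorting receptor sortilin, read 16.9 to 19.2 FPKM in HET and 19.7 to 25.7 FPKM in MUT. Its log2 fold change in MUT against HET was 0.36 (standard error 0.14, adjusted p = 0.835), and WT lay between 16.3 and 24.3 FPKM.

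*Ecm1* encodes a secreted matrix protein and was the most variable of the 9 genes in WT. It lies on chromosome 3 from 95734148 to 95739569, where the table also lists the locus of *Mir7014*, and its reads are uncertain to that extent. *Ecm1* read 40.7, 54.0 and 34.3 FPKM in WT, 53.3, 56.7 and 42.9 FPKM in HET, and 48.9, 43.7 and 53.4 FPKM in MUT. WT-2 lay among the highest libraries and WT-3 was the lowest. The log2 fold change was 0.26 in HET and 0.20 in MUT against WT and -0.06 between MUT and HET (standard error 0.17), and the coefficient of variation in WT was 23.4%. Without WT-2 the differences from WT were 0.43 in HET and 0.37 in MUT, and without WT-3 they were 0.11 and 0.048. Of 3 known binding partners of the Ecm1 protein, *Fbln1* and *Hspg2* passed the minimum. *Hspg2*, which encodes perlecan, gave 0.51 in MUT against HET (standard error 0.28, adjusted p = 0.835).

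**Figure D2:**
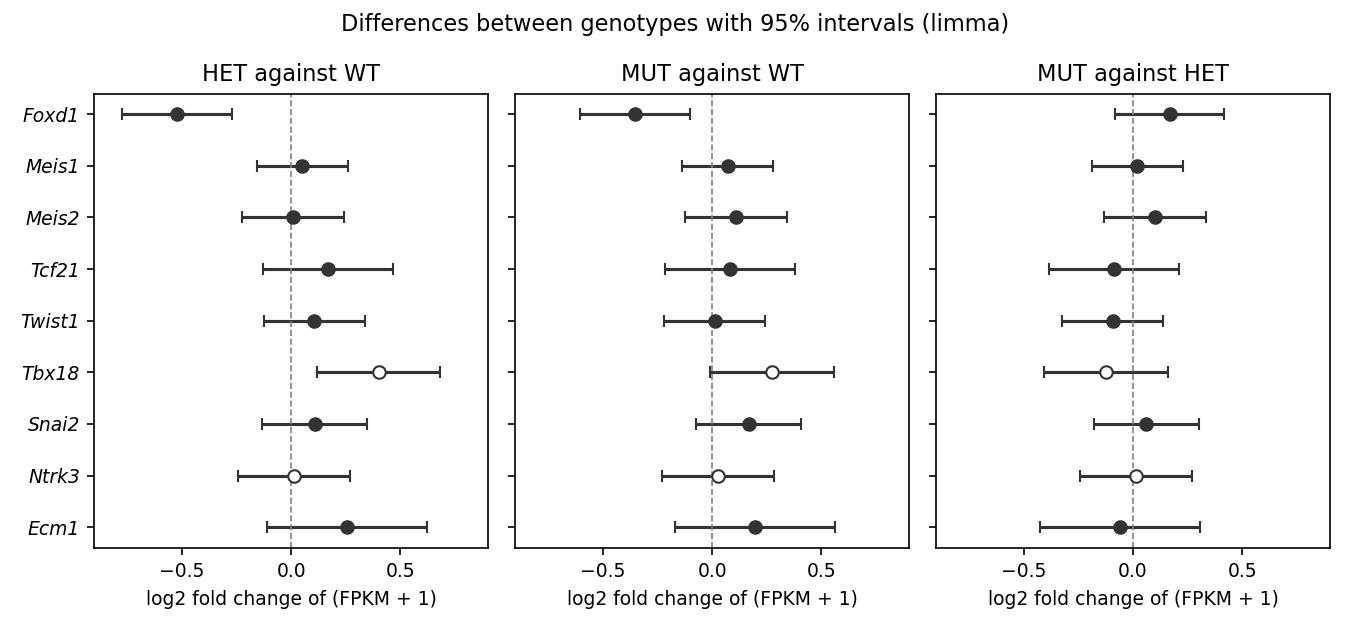
Log2 fold change of (FPKM + 1) with its 95% interval from limma for the 9 genes (rows) in HET against WT, MUT against WT and MUT against HET (panels). Open circles mark *Tbx18* and *Ntrk3*, from the fit at a minimum of 1 FPKM. The intervals of *Foxd1* lie below 0 in both comparisons with WT, that of *Tbx18* lies above 0 in HET against WT, and all 9 intervals hold 0 in MUT against HET.

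MUT and HET differ in *Ntn1* genotype and share the Cre allele, but their *Ntn1* levels overlapped (log2 fold change -0.10, standard error 0.20). In MUT against HET, none of the 7 tested genes passed the adjusted test and none had an unadjusted p under 0.05, beside 3.96% of all loci. The log2 fold changes ran from -0.09 for *Twist1* to 0.17 for *Foxd1*, with 4 of 7 positive and a median of 0.02, against -0.01 over all loci. The widest of the 7 intervals, that of *Ecm1*, was -0.43 to 0.31. In carriers against WT, 6 of 7 log2 fold changes were positive and that of *Foxd1* was negative. The median was 0.06. *Foxd1* was the 1 gene of the 7 with an unadjusted p under 0.05 in each of the 3 comparisons with WT, beside 0.866% of loci in MUT against WT, 0.826% in HET against WT and 0.787% in carriers against WT. These 3 comparisons share the WT libraries.

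**Figure D3:**
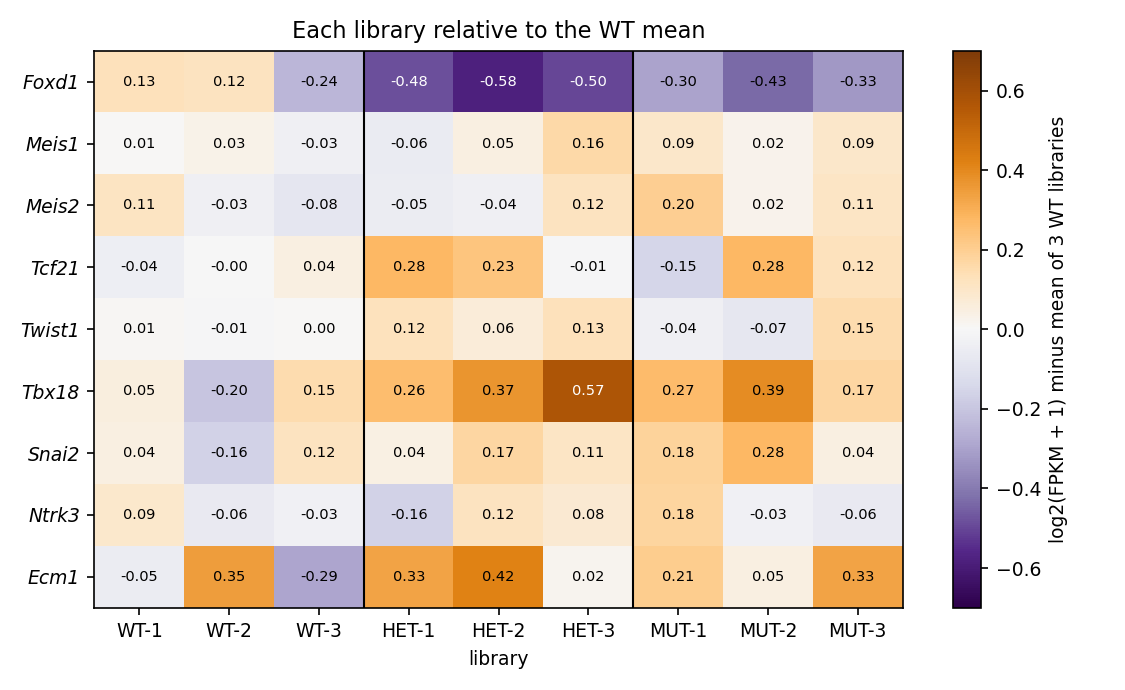
Map of log2(FPKM + 1) in each library minus the mean of the 3 WT libraries, for the 9 genes (rows) and 9 libraries (columns, with lines between the genotypes). *Foxd1* is between -0.58 and -0.30 in the 6 Cre carriers and *Tbx18* is above 0 in all 6, while the other rows hold both signs or stay close to 0 in some carriers.

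Library by library, *Foxd1* and the median of the 8 other genes lay on opposite sides of their WT means in the carriers. The median deviation of the other 8 genes from their WT means was between 0.04 and 0.18 on the log2 scale in the 6 carriers. It was between -0.02 and 0.02 in the 3 WT libraries. Each gene is centred on these same WT libraries, so their values lie near 0 by construction and give no measure of spread. The same median over all loci was not taken. Summed, the other 8 genes came to 313.2 to 323.4 FPKM in WT, 329.8 to 363.4 FPKM in HET and 322.8 to 359.4 FPKM in MUT. *Tcf21* accounts for a large share of this sum.

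The 9 genes did not follow each other closely across the 9 libraries. Over 36 pairs the Pearson correlation of log2(FPKM + 1) had a median of 0.11 and ran from -0.86 to 0.77, with 20 pairs positive. The lowest pair was *Foxd1* with *Tbx18*, which stood at -0.53 once genotype means were subtracted. *Tbx18* with *Snai2* was the highest at 0.77, and stood at 0.82 without the genotype means. *Meis1* with *Meis2* gave 0.71, and 0.69 without the genotype means. All values in a pair share the library and its scaling, and they are given as a description of 9 libraries.

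The loci whose profile over the 9 libraries was most like that of *Foxd1*, among 10164, were *Snora21* (Pearson r = 0.87), *Nell2* (0.84), *Cpm* (0.82), *Ntn1* (0.80) and *Snora31* (0.79). *Snora21* and *Snora31* are small nucleolar RNA genes and were listed at 0 FPKM in all HET libraries. *Nell2* had mean levels of 5.65 FPKM in WT, 3.64 FPKM in HET and 4.61 FPKM in MUT, the same order of genotypes as *Foxd1*. With the genotype means subtracted, the most alike were *Zfp385a*, *Rcc2*, *Fscn1*, *B4galnt4* and *Sulf2*, with r from 0.98 to 0.99. Among the other tested members, r with *Foxd1* was highest for *Meis2* at 0.08, which was above 63.1% of loci, and lowest for *Snai2* at -0.65, above 0.817% of loci.

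Other genes of the stroma were read from lists of the nephrogenic and cortical zone and of the medulla. Of 11 genes of the nephrogenic and cortical stroma, all 11 were tested, none passed the adjusted test (limma, 3 at unadjusted p under 0.05, namely *Ntn1* itself, *Clca3a1* and *Dcn*, beside 0.787% of all loci), and 5 of 11 were positive in carriers against WT with a median log2 difference of 0.00, the same as over all loci. *Clca3a1* read 7.54, 6.60 and 8.98 FPKM in WT, 6.17, 6.21 and 6.77 FPKM in HET and 5.85, 5.40 and 5.47 FPKM in MUT. Its log2 fold change was -0.31 in carriers against WT (standard error 0.11, adjusted p = 1.00), and HET-3 was above WT-2. *Dcn*, which encodes the matrix proteoglycan decorin, gave 0.35 (standard error 0.15, adjusted p = 1.00).

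*Crabp1*, a retinoic acid binding protein gene, read 33.6 to 37.0 FPKM in HET, 20.6 to 31.8 FPKM in MUT and 23.4 to 38.0 FPKM in WT. MUT lay below HET in every library (log2 fold change -0.48, standard error 0.18, adjusted p = 0.835), which was so for 4.47% of loci, and MUT-1 and MUT-2 were also below every WT library. Of 6 genes of the medullary stroma, all 6 were tested and none passed the adjusted test (limma, 1 at unadjusted p under 0.05, *Wnt5a* in MUT against HET, beside 3.96% of all loci). All 6 were positive in carriers against WT, with a median of 0.12, beside 5214 of 10164 loci and a median of 0.00. Signs were also uneven in lists outside the stroma, and no list was tested as a set. Nephron progenitor and ureteric bud markers were positive in 5 of 6 each, with medians of 0.14 and 0.12. Podocyte markers were positive in 1 of 6 (median -0.10) and endothelial markers in 0 of 5 (median -0.08). *Wnt5a*, a secreted Wnt ligand, gave 0.43 in MUT against HET (standard error 0.17, adjusted p = 0.835) and read 13.4 to 15.47 FPKM in HET, 14.9 to 23.5 FPKM in MUT and 13.0 to 19.2 FPKM in WT.

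**Figure D4:**
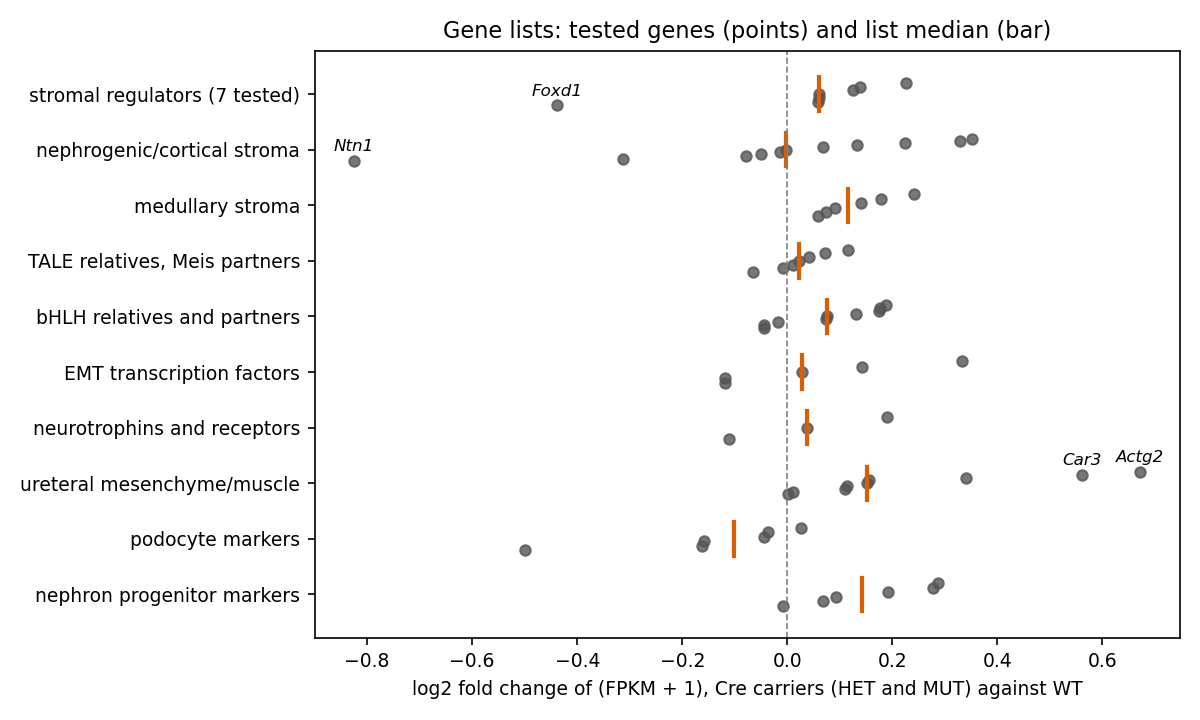
Log2 fold change of (FPKM + 1) in Cre carriers against WT (limma, 6 against 3 libraries) for the tested genes of each list, with 1 row per list, 1 point per gene and a bar at the list median. *Foxd1* at -0.44 is the lowest of the 7 tested regulators, and the 9 ureteral mesenchyme and smooth muscle genes lie between 0.00 and 0.67.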

How the data were processed

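Whole kidneys of E15.5 embryos were profiled by bulk RNA-seq in 3 libraries for each of the MUT, HET and WT genotypes given in the labels. According to the methods and the processing notes, the authors aligned reads to mm10 with STAR and computed FPKM with Cufflinks and Cuffdiff (versions not given in the sources used here). The deposited table holds FPKM for 24138 loci, of which 355 carry several names, and mean columns that were not used. The strand setting is not given in the sources used here.

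FPKM were compared as log2(FPKM + 1) with limma 3.58.1 (lmFit, eBayes with trend) in R 4.3.3, over all 9 libraries and 3 genotypes, with the Benjamini-Hochberg adjustment over the 10164 loci whose mean reached 5 FPKM for at least 1 genotype. *Tbx18* and *Ntrk3* fell below it and were fitted at a minimum of 1 FPKM, a choice made after the data were seen. The *Foxd1* level was also compared by exact permutation (scipy 1.17.1). Tests are two-sided and measure the spread between 3 kidneys per genotype, for which the labels give neither litter nor sex. GC content came from GENCODE release M21 for 95.9% of loci, and promoters from RefSeq (GRCm38.p6). The fit was tested on simulated data. The 9 genes and the lists were chosen with earlier results of these data known, and the genes named from a list are among its 3 with the smallest p in the comparison given. Some genes of the lists are not reported here. Kidneys of the same number were not taken as pairs, and alternatives are given in the closing section.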

Additional observations from a re-analysis of the deposited data

How the results depend on the processing

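*Foxd1* kept its direction in 79 of 79 alternative values and *Tbx18* in 72 of 72, each counted over 4 comparisons that share libraries. The *Tbx18* difference between carriers and WT ran from 0.23 to 0.42. Over its alternatives, the *Foxd1* log2 difference between carriers and WT ran from -0.56 to -0.37 (limma, adjusted p = 0.389 to 1.00). Its exact permutation test missed 0.05 without WT-1, WT-2 or WT-3, where the differences ran from -11.0 to -7.11 FPKM, since 6 libraries against 2 cannot give p below 0.0714. Of 697 alternative values for 36 gene differences, 671 kept their direction and 26, over 11 of the differences, reversed. GC correction, with or without the replicate block, took *Meis1* in MUT against HET to -0.0026 and *Twist1* in MUT against WT to -0.054, and quantile normalization took *Meis2* in HET against WT to -0.023.

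The other 21 reversals came from leaving out 1 library. The ranges were -0.034 to 0.075 for *Meis1*, -0.18 to 0.032 for *Tcf21* and -0.18 to 0.020 for *Ecm1* in MUT against HET, -0.015 to 0.20 for *Tcf21* and -0.056 to 0.055 for *Twist1* in MUT against WT, and -0.0039 to 0.10 for *Meis1* and -0.044 to 0.066 for *Meis2* in HET against WT. For *Ntrk3* they were -0.071 to 0.066 in MUT against HET, -0.048 to 0.073 in MUT against WT, -0.039 to 0.098 in HET against WT and -0.018 to 0.066 in carriers against WT. The cause was not tested.

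The count of loci with an adjusted p under 0.05 was 0 in each comparison, where 402 (MUT against HET), 88 (MUT against WT), 84 (HET against WT) and 80 (carriers against WT) loci had an unadjusted p under 0.05. Leaving out 1 library gave 0 to 1 loci in MUT against HET, 0 to 2 in MUT against WT, 0 to 1 in HET against WT and 0 to 1 in carriers against WT. The calls came without MUT-2 (*Snora68* and *Plet1*) and without WT-2 (*Snord35a* and *Spink8*). Without an FPKM minimum, 1 locus was called in MUT against WT (*Crisp1*, log2 fold change 0.16, adjusted p = 0.0472). None of the 9 genes had an adjusted p under 0.05 under any alternative run.

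Whether kidneys of the same number share a cross is not given in the sources used here. Same-numbered libraries correlated in their deviations at a mean of -0.02 (range -0.31 to 0.55 over 9 pairs). For other numbers the mean was 0.01 (range -0.55 to 0.48 over 18 pairs). With ranges this wide, the correlations cannot decide whether the numbers pair the kidneys. With the replicate block, 0 loci passed in each comparison, and *Foxd1* in carriers against WT stayed at -0.44 (limma, adjusted p = 1.00). Unknown read numbers leave the counting error of *Tbx18* and *Ntrk3*, at a few FPKM, without an estimate.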
